A study of Homo sapiens with 30 samples.

Results

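Genes of U251 cells, an established human glioblastoma line, were compared between 28 days and 3 days of continuous exposure to interferon-γ (IFN-γ). The comparison rests on 6 of the 30 libraries of the series, 3 at D28 and 3 at D3, and on 24363 of the 61471 genes in the deposited table, those with a mean of at least 0.5 TPM (RNA abundance scaled by transcript length and library total) over these 6 libraries. Between the earlier and the later time no gene of the IFN-γ receptor, its kinases and STATs passed the test. At D28, 12 of 15 chemokines, 16 of 21 AP-1 and other immediate early factors, 10 of 34 metalloproteases and inhibitors and HLA-DQA1 were higher. Lower were 15 of 41 glycolysis and hypoxia genes and 26 of 86 ribosomal protein genes. Of all genes tested 8.91% were higher and 5.61% were lower. CXCL14 among the chemokines and MMP10 among the metalloproteases are counted here, though they entered the test only through their D28 values.

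The study sequenced total RNA of the lines U87-MG and U251-MG in 5 groups of 3 libraries each. Untreated cells had no IFN-γ, D3, D14 and D28 cells had it for 3, 14 and 28 days, and D28WO cells had it for 14 days and were then kept without it until day 28. The genotype was wild type throughout, and all cells grew in DMEM with serum and antibiotics, with medium changes every other day. The sources give the dose differently: the treated samples are labelled 1 µL/mL, which is not a concentration, and the other sources give concentrations that do not match each other. The Untreated samples are labelled as collected on day 3, whereas the study's methods place them on day 0, and either way they are not a control of the same age for D28, and no untreated cells of day 28 were analysed here. By the study's general definition, replicates are independent cultures from the start onward, with exceptions named where they occur. The labels do not say which cultures these were. U251-MG is listed as a commonly misidentified line, and the study did not authenticate it again by its own profiling. A line in culture holds no immune cells that could answer to a chemokine or read an HLA molecule.

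IFN-γ is the cytokine that activated T and NK cells release. It binds the receptor chains IFNGR1 and IFNGR2, whose kinases JAK1 and JAK2 phosphorylate transcription factors of the STAT family, which bind gamma-activated sites (GAS) and raise IRF1, which acts on interferon-stimulated response elements (ISRE). The targets include CIITA and NLRC5, which drive the genes of MHC class II and class I, the chemokines that attract T cells, and the inhibitors SOCS1 and SOCS3, which damp the signal again. NF-κB and AP-1, the factors of inflammatory and growth factor signaling, act on several of the same genes.

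Across the genes tested, Pearson's r was 0.958 to 0.966 between D3 libraries, 0.965 to 0.968 between D28 libraries and 0.947 to 0.958 between the groups. D28 libraries listed 28955 to 30246 genes above 0 and D3 libraries 26475 to 28365, and genes that such cells do not use (olfactory receptors, keratin-associated proteins and the like) had a trimmed mean of 0.0188 to 0.0329 TPM at D28 and 0.0101 to 0.0127 TPM at D3, highest in D28 replicate 2. Neither set of libraries overlapped the other in these measures (two-sided exact permutation test, p = 0.1 for each, the smallest that 3 against 3 allows), whereas olfactory receptors alone, a subset of these genes, overlapped (0.0190 to 0.0228 TPM at D3 and 0.0181 to 0.0405 TPM at D28, p = 0.6 in the same exact test). With the background of each library subtracted, 693 genes were higher and 120 lower past the threshold described below. Of the 818 genes past it without subtraction, 810 were among them. The amounts subtracted, at most 0.0329 TPM, were small beside the 1 TPM added before taking logs. This setting could hardly move a value, so whether background bears on the calls was not tested. TPM keeps no sequencing depth, so no limit of detection is given for a gene listed at 0. Marker sums were highest for the labelled cell type, though not every marker of it was high. The 10 glial and progenitor markers summed to 1377 to 1641 TPM at D3 and 1554 to 1785 TPM at D28. A large part was VIM (599 to 687 and 697 to 836 TPM), whereas OLIG2 was at 0.107 to 0.208 and 0.796 to 1.33 TPM. By the same measure 7 T and NK cell markers summed to 1.26 to 2.51 and 1.20 to 5.81 TPM, 8 macrophage markers to 6.73 to 9.70 and 7.43 to 11.1 TPM, and 4 B cell markers to 1.44 to 2.50 and 0.248 to 1.40 TPM. CD2 and C1QB were listed at 0 in all 6 libraries. Only 3 of the 7 T and NK, 3 of the 8 macrophage and 1 of the 4 B cell markers were tested, and none passed. The others lay under the limit of 0.5 TPM and could not be called. In bulk RNA a change in the share of cells that use a gene and a change of RNA per cell cannot be told apart.

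Differences were estimated on the log2(TPM + 1) scale, which understates changes of low genes, with limma on all 15 U251 libraries, and p-values were adjusted by the Benjamini-Hochberg method over the 24363 genes. At an adjusted p under 0.05, 2171 genes were higher at D28 (8.91% of those tested) and 1366 were lower (5.61%), and after quantile normalization 2114 were higher and 2004 lower, with a median over all genes of -0.027 in place of 0.035. Below, a change or rise by a bare number and a single number in brackets after a gene are log2 fold changes, and a pair in TPM gives the mean levels at D3 and D28. Past the threshold used below, which also asks for a log2 fold change over 1 in size, 701 genes were higher (2.88%) and 117 lower (0.480%), so that 85.7% of the genes past it were higher. After quantile normalization this share was 69.8%, with 497 genes higher and 215 lower. All 3 D28 libraries lay above all 3 D3 libraries in 4380 genes (18.0%) and below them in 3192 (13.1%). Of the 701 higher genes, 393 were protein-coding and 240 long non-coding, and 272 (38.8%) had a mean under 1 TPM at D3, where the background named above differed as well. A gene with a mean under 0.5 TPM at D3 entered the test only through its D28 values, so that its call does not stand as support. Among the genes named below this holds for BMP7, CEMP1, CXCL14, GJA10, H2AC17, KRTAP2-3, KRTAP21-2 and MMP10, and in the other direction for ENSG00000258989. Of the 117 lower genes 52 were protein-coding. By the same limits D14 was above D3 in 673 genes (2.76%) and below it in 803 (3.30%), and D28 was above D14 in 1041 (4.27%) and below it in 322 (1.32%). These comparisons share libraries with the one between D28 and D3. Among the fits without 1 library, the number of calls was lowest without D28 replicate 2, with 507 higher, and without D28 replicate 3, with 72 lower, and in the 6 libraries alone it was 459 and 64. At an adjusted p under 0.05 alone, 1394 were higher without D28 replicate 2, and 900, 816 and 720 were lower without D3 replicate 1, D28 replicate 2 and D28 replicate 3.

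**Figure D1:**
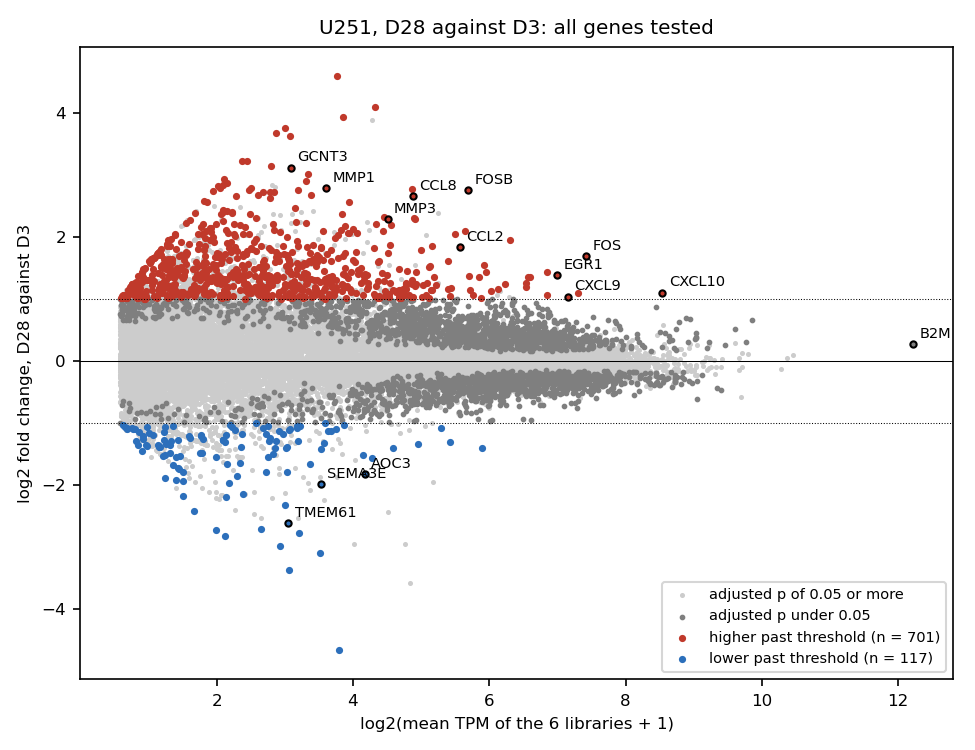
Log2 fold change from D3 to D28 on log2(TPM + 1) values (y axis) against log2 of the mean TPM of the 6 libraries plus 1 (x axis) for the 24363 genes tested in U251, 1 dot a gene, with 701 genes higher and 117 lower past the threshold. CXCL10, FOS and FOSB lie among the higher genes of high abundance.

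None of the 10 tested receptor, kinase and STAT genes of the interferon pathway passed the test, beside 8.91% of all genes that rose and 5.61% that fell, and their median log2 fold change was -0.013, beside 0.035 for all genes tested, and 0.014 beside -0.027 after quantile normalization. IRF1 (chr5:132440440-132508719, GRCh38, minus strand), the factor that carries the signal to ISRE genes, was at 514, 721 and 533 TPM at D3 and 577, 559 and 674 TPM at D28. The values of both groups overlapped, with a log2 fold change of 0.046 (95% interval -0.19 to 0.28, limma, adjusted p = 0.825). In Untreated it averaged 141 ± 3.90 TPM (mean ± SD, n = 3, as in all values of this form), and D3 lay above Untreated by 2.04 (limma, adjusted p = 6.03e-09). At D14 it averaged 300.3 ± 18.4 TPM, with D14 minus D3 at -0.95 (limma, adjusted p = 2.86e-05). JAK1 and JAK2 differed by 0.0027 and -0.077, IFNGR1 by -0.20 (95% interval -0.38 to -0.019, limma, adjusted p = 0.132) and IFNGR2 by 0.23 (95% interval 0.071 to 0.38, limma, adjusted p = 0.0514). JAK2 averaged 59.5 ± 4.36 TPM at D3, 14.4 ± 1.27 TPM at D14 and 56.6 ± 7.03 TPM at D28, with D14 minus D3 at -1.98 (limma, adjusted p = 6.56e-06), so that values near each other at D3 and D28 do not show a steady level between them. IFNGR2 lay above D3 in all D28 libraries and did not pass the test, and it passed in 4 of 17 alternatives (a mean of at least 1 TPM, a replicate block, array weights, and without D3 replicate 2). CIITA, which switches on MHC class II, was at 137, 126 and 128 TPM at D3 and 126, 126 and 139 TPM at D28, and its difference of 0.00066 (95% interval -0.30 to 0.30, limma, adjusted p = 0.998) was close to 0, as was that of NLRC5, its counterpart for class I, at 0.076. CIITA had been at 7.48 ± 0.621 TPM at D14, with D14 minus D3 at -3.96 (limma, adjusted p = 1.01e-09) and D28 minus D14 at 3.96 (limma, adjusted p = 6.81e-10).

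Feedback genes did not move together. Of the 10 tested, 2 rose (20.0%, all genes 8.91%), 2 fell (20.0%, all genes 5.61%) and 6 did not pass, and with any library left out 1 fell, with none in the 6 libraries alone. SOCS3, an inhibitor of JAK kinases, was at 42.9, 43.5 and 47.1 TPM at D3 and 71.8, 81.6 and 94.1 TPM at D28. Every D28 library lay above every D3 library, and the log2 fold change was 0.87 (SE 0.091, limma, adjusted p = 8.67e-05). USP18, which limits signaling from the type I interferon receptor, rose by 0.52 (SE 0.10, limma, adjusted p = 0.00547). SOCS1, the inhibitor most directly tied to IFN-γ, was at 32.5, 39.3 and 35.5 TPM at D3 and 41.3, 46.1 and 49.9 TPM at D28, with no overlap, and its log2 fold change of 0.35 (95% interval 0.044 to 0.65, limma, adjusted p = 0.118) did not pass the test. The phosphatases PTPN1 and PTPN11 fell by 0.16 and 0.38 on the log2 scale, PTPN1 with an adjusted p of 0.0412 in limma and a call lost in 8 of 17 alternatives that include leaving out D3 replicate 1, 2 or 3 or D28 replicate 1, 2 or 3. PTPN2 did not pass, at -0.10.

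Across 40 listed genes of interferon signaling and antigen presentation, HLA genes, CD274 and IDO1 included, 12 rose, 2 fell and 26 did not pass, beside 8.91% of all genes that rose and 5.61% that fell, with a median of 0.15 beside 0.035 for all genes. For 32 of the 40 the 95% interval of the difference lay within a 2-fold change either way. The 5 that rose past the threshold were CXCL9, CXCL10, CCL2, CCL5 and HLA-DQA1.

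**Figure D2:**
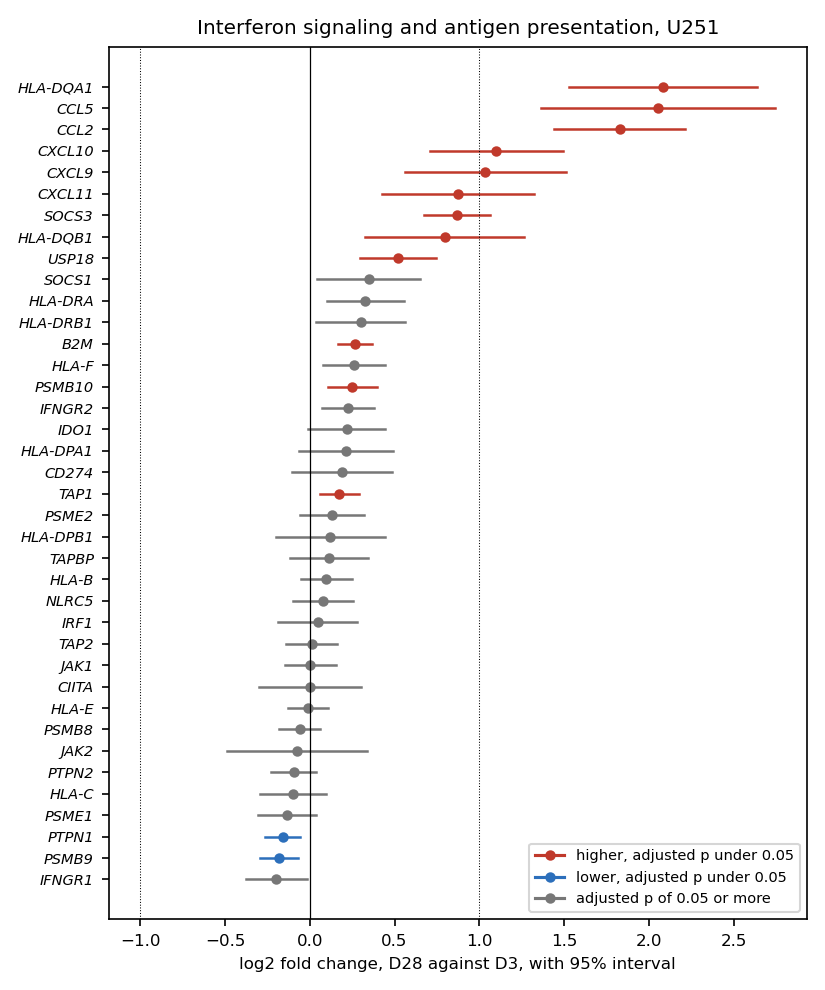
Log2 fold change from D3 to D28 (x axis) with its 95% interval, not adjusted for the number of genes, for 38 genes of interferon signaling and antigen presentation in U251 (y axis), colored by the adjusted p of limma, with dotted lines at a 2-fold change. Chemokines and HLA-DQA1 stand at the top and CIITA and JAK1 around 0.

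MHC class I shows peptides from inside the cell to CD8 T cells. Of 17 of its genes tested, 3 rose (17.6%, beside 8.91% of all genes), 1 fell (5.88%, beside 5.61%) and 13 did not pass, with a median of 0.096, and 5 rose without D3 replicate 2. B2M, the invariant light chain, was at 4383, 4215 and 4424 TPM at D3 and 5443, 5277 and 4937 TPM at D28. Its D28 libraries all lay above D3, with a log2 fold change of 0.26 (SE 0.046, limma, adjusted p = 0.00246), and after quantile normalization the difference was 0, since it was the top gene of every library. TAPBPL, an editor of the peptides loaded, rose from a mean of 62.6 to 94.1 TPM (0.58). The peptide pump TAP1 rose by 0.17 (SE 0.053, limma, adjusted p = 0.0444), a call lost in 10 of 17 alternatives that include leaving out D3 replicate 1 or 3 or D28 replicate 1, 2 or 3, and its partner TAP2 differed by 0.01. CANX, a folding chaperone, fell by 0.33. HLA-B, HLA-C and HLA-E differed by 0.10, -0.10 and -0.0085 and none passed, and reads shared between these near-identical genes make their single values uncertain. The tapasin gene TAPBP (0.11) and HLA-F (0.26) did not pass either, and HLA-F passed in 5 of 17 alternatives that include leaving out D3 replicate 2 or D28 replicate 1. In the immunoproteasome, which cuts peptides for class I, PSMB10 rose by 0.25, a call lost in 6 of 17 alternatives that include leaving out D3 replicate 2 or D28 replicate 1, 2 or 3, and PSMB9 fell by 0.18 on the log2 scale, a call lost in 7 of 17 alternatives that include leaving out D3 replicate 2 or 3 or D28 replicate 1 or 2. PSMB8 differed by -0.06, and the chaperone POMP rose by 0.26. Its activator genes PSME1 (-0.13) and PSME2 (0.13) did not pass.

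MHC class II genes, which show peptides from outside to CD4 T cells, rose in 8 of 19 (42.1%, all genes 8.91%) and none fell, with a median of 0.30 and 5 that rose at a pseudocount of 0.1. HLA-DQA1 (chr6:32628179-32647062, GRCh38, plus strand) was at 7.42, 5.69 and 8.89 TPM at D3 and 33.2, 38.6 and 30.4 TPM at D28. All D28 libraries were above all D3 libraries, by a ratio of means of 4.65 and a log2 fold change of 2.08 (SE 0.26, limma, adjusted p = 0.000264). It averaged 0.0558 ± 0.0485 TPM in Untreated, 0.182 ± 0.117 TPM at D14 and 1.42 ± 0.813 TPM in D28WO, so that only the D28 cells held it above 10 TPM. Its partner HLA-DQB1 was at 40.6, 46.4 and 59.6 TPM at D3 and 73.4, 96.1 and 85.4 TPM at D28, without overlap, with a log2 fold change of 0.79 (SE 0.22, limma, adjusted p = 0.0267), a call lost in 6 of 17 alternatives that include leaving out D3 replicate 1 or 2 or D28 replicate 2 or 3. HLA-DOB, which inhibits peptide exchange on class II, was at 13.8, 11.8 and 12.6 TPM at D3 and 26.1, 26.1 and 27.6 TPM at D28, and rose by 1.01 (SE 0.22, limma, adjusted p = 0.00878), a call lost at a pseudocount of 0.1. The lysosomal enzymes CTSS (198 to 282 TPM), IFI30 (193 to 284 TPM), LGMN (121 to 177 TPM) and CTSL (167 to 210.0 TPM), which cut or unfold antigens, rose as well, as did the peptide editor HLA-DMB (79.4 to 113 TPM). The abundant HLA-DRA was at 201, 293 and 238 TPM at D3 and 296, 304 and 308 TPM at D28, all D28 libraries above D3, but its difference of 0.33 (95% interval 0.10 to 0.56, limma, adjusted p = 0.055) did not pass, though it did in 5 of 17 alternatives that include leaving out D3 replicate 2. HLA-DRB1 (0.30), HLA-DPA1 (0.21) and HLA-DPB1 (0.12) did not pass. At D14 HLA-DRA had averaged 49.6 ± 4.49 TPM and HLA-DPA1 153 ± 6.28 TPM, both below D3 and D28. Class II genes share reads with close relatives, so the split between them is uncertain.

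Chemokines, secreted proteins that direct leukocytes, rose in most members. Of 15 tested, 12 rose and none fell (80.0%, beside 8.91% of all genes tested), 10 of them past the threshold (66.7%, beside 2.88%), and the median log2 fold change was 1.17. CXCL14 is among the 12 and the 10, and it entered the test only through its D28 values. The promoter sequences of 3 of them are shown here because interferon factors are known to act on CXCL9 and CXCL10 and NF-κB on CXCL10 and CXCL2. Each gives the 250 bases before the gene's start in RefSeq, 5′ to 3′ on the gene's own strand, on GRCh38.p14, with matches to the ISRE core (GAAA, any 2 bases, then GAAA again, on either strand) or to a κB site in capitals. The windows lie at chr4:76007510-76007759 for CXCL9, at chr4:76023498-76023747 for CXCL10 and at chr4:74099196-74099445 for CXCL2, all on the minus strand.
CXCL9: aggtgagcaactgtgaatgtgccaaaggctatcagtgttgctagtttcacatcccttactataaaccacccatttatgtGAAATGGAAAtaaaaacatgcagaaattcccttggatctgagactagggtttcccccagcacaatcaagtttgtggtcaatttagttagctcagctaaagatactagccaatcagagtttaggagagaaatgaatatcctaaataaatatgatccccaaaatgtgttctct
CXCL10: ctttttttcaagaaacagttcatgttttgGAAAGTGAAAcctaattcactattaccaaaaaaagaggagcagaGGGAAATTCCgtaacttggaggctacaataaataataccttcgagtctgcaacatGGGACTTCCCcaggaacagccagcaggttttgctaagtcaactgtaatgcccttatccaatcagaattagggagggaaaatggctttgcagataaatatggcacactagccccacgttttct
CXCL2: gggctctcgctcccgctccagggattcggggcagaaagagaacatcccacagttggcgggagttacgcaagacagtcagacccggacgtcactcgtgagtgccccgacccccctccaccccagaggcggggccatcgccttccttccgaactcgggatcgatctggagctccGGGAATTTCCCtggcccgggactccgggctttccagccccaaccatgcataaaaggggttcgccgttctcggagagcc
In CXCL9 the ISRE match begins 171 bases before the start. In CXCL10 it begins 221 bases before it and the κB matches 177 and 122 bases before it. In CXCL2 a pair of overlapping κB matches begins 78 and 77 bases before the start. Shares over many genes were counted in windows of 300 bases, the 250 before the start and 50 after it. Of the 19565 windows of genes tested, 3.05% held the ISRE core and 12.97% a κB site. Of the 11 windows of the 11 chemokines that could be matched, 2 held the ISRE core, 2 the GAS core TTCNNNGAA, 5 a κB site and 3 an AP-1 site. These matches describe the sequence, and no binding was measured.

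The receptor CXCR3 of T cells has 3 ligands, all of them classical targets of IFN-γ. CXCL10 (chr4:76021118-76023497, GRCh38, minus strand) was at 178, 287 and 252 TPM at D3 and 492, 498 and 521 TPM at D28. Every D28 library lay above every D3 library, the ratio of means was 2.11 and the log2 fold change 1.10 (SE 0.18, limma, adjusted p = 0.00183). CXCL9 (chr4:76001275-76007509, minus strand) was at 61.1, 128 and 95.2 TPM at D3 and 186, 174 and 203 TPM at D28. Its groups did not overlap either, and it rose by 1.03 (SE 0.22, limma, adjusted p = 0.0079). CXCL11 was at 199, 292 and 248 TPM at D3 and 432, 418 and 493 TPM at D28, with D28 above D3 throughout and a log2 fold change of 0.87 (SE 0.21, limma, adjusted p = 0.0143). With a pseudocount of 0.1 in place of 1 in the same 15 libraries the adjusted p in limma was 0.0604 for CXCL9, 0.203 for CXCL10 and 0.167 for CXCL11, and with a pseudocount of 1 in the 6 libraries alone it was 0.0487, 0.0157 and 0.0181. Over all 17 alternatives it ran from 0.00284 to 0.0604 for CXCL9, from 0.00122 to 0.203 for CXCL10 and from 0.00384 to 0.167 for CXCL11, whose call was also lost without D3 replicate 1 and without D28 replicate 3. Between D3 and D28 lay a low point. CXCL10 averaged 0.203 ± 0.351 TPM in Untreated, 36.1 ± 0.529 TPM at D14 and 89.3 ± 10.6 TPM in D28WO, and CXCL9 0.0276 ± 0.0479 TPM in Untreated, 0.548 ± 0.300 TPM at D14 and 16.1 ± 2.00 TPM in D28WO. On the log2 scale D14 minus D3 was -2.67 (limma, adjusted p = 3.06e-07) for CXCL10, and D28 minus D14 was 3.77 (limma, adjusted p = 1.17e-08). For CXCL9 these differences were -5.91 (limma, adjusted p = 1.13e-09) and 6.94 (limma, adjusted p = 3.19e-10).

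Chemokines of monocytes and T cells rose as well. CCL2 (chr17:34255274-34257208, plus strand), which attracts monocytes, was at 14.7, 26.4 and 20.0 TPM at D3 and 68.03, 75.2 and 76.0 TPM at D28. Its groups were well apart, with a ratio of means of 3.58 and a log2 fold change of 1.83 (SE 0.18, limma, adjusted p = 5.09e-05). It averaged 21.0 ± 3.00 TPM in Untreated, 57.1 ± 2.23 TPM at D14 and 9.68 ± 2.01 TPM in D28WO. CCL8 (chr17:34319435-34321402, plus strand), a close relative of CCL2, was at 2.83, 12.5 and 8.50 TPM at D3 and 45.9, 46.8 and 54.0 TPM at D28, with the lowest D28 value above the highest D3 value. It rose by 2.66 (SE 0.37, limma, adjusted p = 0.000635), and it was listed at 0 in all Untreated libraries and at 0.203 ± 0.352 TPM at D14. CCL5, which attracts T cells, was at 2.88, 8.70 and 4.18 TPM at D3 and 23.1, 26.0 and 20.4 TPM at D28. No D3 library reached a D28 library, and the log2 fold change was 2.05 (SE 0.32, limma, adjusted p = 0.00128). CX3CL1, a membrane-bound chemokine, rose from 86.0 to 145 TPM (0.75).

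Chemokines that attract neutrophils, known targets of NF-κB, had a different course. CXCL2 was at 30.2, 29.8 and 34.9 TPM at D3 and 111, 128 and 135 TPM at D28. The D28 libraries stood apart from D3, with a ratio of means of 3.94 and a log2 fold change of 1.94 (SE 0.10, limma, adjusted p = 4.25e-07). CXCL8 was at 45.9, 55.2 and 59.8 TPM at D3 and 128, 134 and 153 TPM at D28, again without overlap, and rose by 1.36 (SE 0.11, limma, adjusted p = 2.09e-05). CXCL3 rose by 1.36 (SE 0.10, limma, adjusted p = 8.73e-06). All 3 were higher at D14 than at D3 as well, with means of 116 ± 7.86 TPM for CXCL2, 82.3 ± 2.86 TPM for CXCL3 and 156 ± 14.5 TPM for CXCL8, and D28 differed from D14 by 0.10 (limma, adjusted p = 0.536) for CXCL2 and -0.17 (limma, adjusted p = 0.318) for CXCL8. In D28WO cells CXCL8 was back at 30.03 ± 1.90 TPM, beside 31.6 ± 3.21 TPM in Untreated. CCL26, an attractant of eosinophils, rose from 25.7 to 58.7 TPM, and CXCL14 from 0.389 to 2.52 TPM. CXCL12 (0.47), CXCL16 (-0.068) and CCL20 (0.086) did not pass the test.

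**Figure D3:**
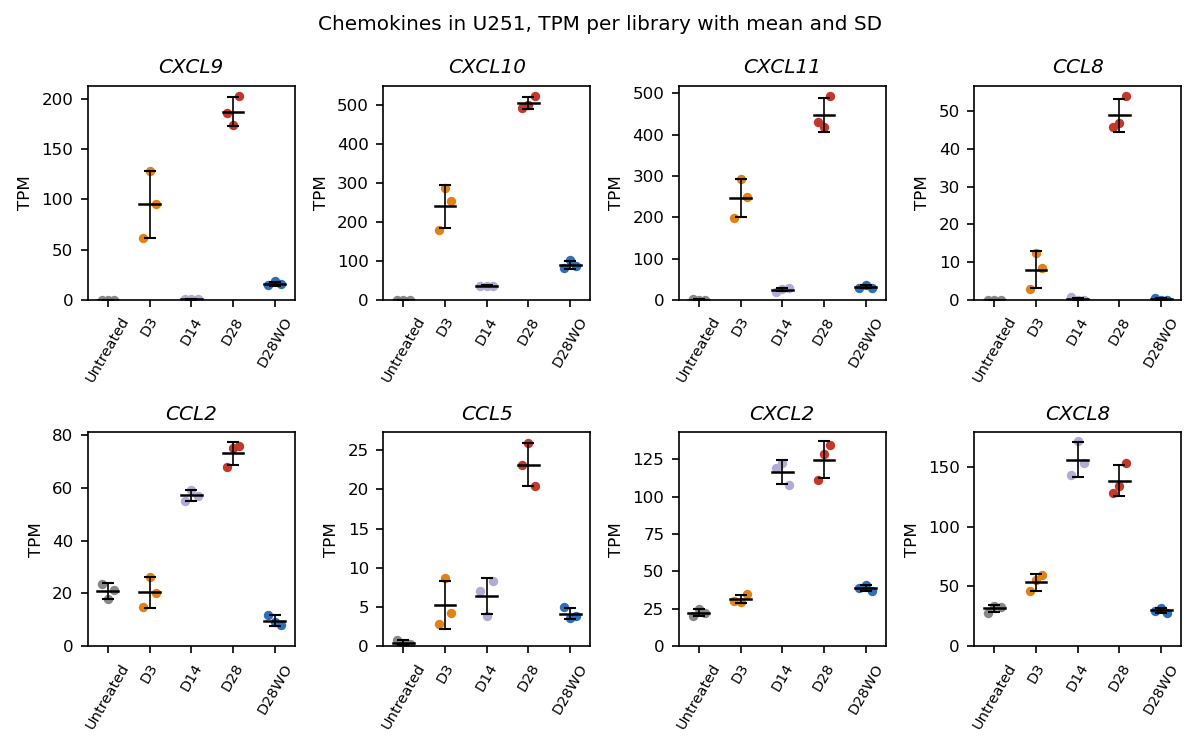
TPM (y axis) of 8 chemokines in every U251 library of the 5 groups (x axis), 1 point a library, with the mean (line) and SD (bars, n = 3). CXCL9, CXCL10 and CXCL11 are high at D3 and higher at D28 with low values at D14. CCL8 is high at D28 alone, whereas CXCL2 and CXCL8 are high at both D14 and D28.

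Among 18 cytokines and growth factors of inflammation 7 rose (38.9%, all genes 8.91%) and none fell, and all 18 had a log2 fold change above 0 (median 0.58). IL6, the main activator of STAT3, rose from a mean of 67.1 to 119 TPM (0.82), TNFSF13B, a survival factor of B cells, from 64.9 to 103 TPM (0.66), TNFSF10, the death ligand TRAIL, from 95.4 to 149 TPM (0.65), IL32 from 78.6 to 110.3 TPM and LIF from 4.46 to 8.19 TPM. CSF2, the growth factor GM-CSF, was at 2.03, 0.598 and 1.86 TPM at D3 and 5.80, 10.1 and 5.15 TPM at D28. Its groups did not overlap, and it rose by 1.69 (SE 0.48, limma, adjusted p = 0.0317). IL1B was at 1.75, 1.51 and 2.81 TPM at D3 and 5.98, 5.73 and 9.04 TPM at D28, also apart, and rose by 1.39 (SE 0.39, limma, adjusted p = 0.0295). The call of CSF2 was lost in 8 of 17 alternatives that include leaving out D3 replicate 1, 2 or 3 or D28 replicate 1, 2 or 3, and that of IL1B was lost in 8 of 17 alternatives that include leaving out D3 replicate 1 or 2 or D28 replicate 1, 2 or 3. The count of members that rose was 2 without D3 replicate 1, D28 replicate 2 or D28 replicate 3 and 4 without any other library.

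Of 17 genes of immune checkpoints and suppression 7 rose (41.2%, all genes 8.91%) and 1 fell (5.88%, all genes 5.61%), with 4 higher without D3 replicate 1 or D28 replicate 3. CD274, the ligand PD-L1, was at 122, 150.3 and 127 TPM at D3 and 152, 165 and 137 TPM at D28. The groups overlapped and the difference was 0.19 (95% interval -0.11 to 0.49, limma, adjusted p = 0.393). IDO1, the first enzyme that breaks down tryptophan, was at 318, 380.3 and 341 TPM at D3 and 411, 389 and 405 TPM at D28, with D28 above D3 in all libraries, and its difference of 0.22 (95% interval -0.01 to 0.44, limma, adjusted p = 0.195) did not pass. Enzymes further down that pathway did rise. KMO was at 6.80, 7.41 and 6.30 TPM at D3 and 27.2, 17.6 and 15.9 TPM at D28, with no overlap and a log2 fold change of 1.40 (SE 0.31, limma, adjusted p = 0.00876), and KYNU rose from a mean of 36.1 to 57.5 TPM and TDO2, an alternative first enzyme, from 7.45 to 12.8 TPM. LGALS9, a ligand of TIM-3, rose from 60.5 to 98.1 TPM, NT5E, the adenosine-forming enzyme CD73, from 142 to 181 TPM, CD47 from 202 to 259 TPM and NECTIN2 from 154 to 206 TPM. TGFB2, a suppressive cytokine, fell from 59.6 to 44.2 TPM.

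Of 42 type I interferon-stimulated genes 8 rose (19.0%, beside 8.91% of all genes), 2 fell (4.76%, beside 5.61%) and the median was 0.16. The count of 2 was 1 when any library except D3 replicate 1 was left out. The count of 8 became 5 without D3 replicate 1, D28 replicate 2 or D28 replicate 3 and 13 after quantile normalization. RSAD2, the antiviral protein viperin, was at 89.8, 92.0 and 118 TPM at D3 and 208, 208 and 222 TPM at D28. Its groups did not overlap and it rose by 1.09 (SE 0.17, limma, adjusted p = 0.00148), with an adjusted p in limma of 0.000924 to 0.0857 over the 17 alternatives, the highest at a pseudocount of 0.1. IFI6 rose from 363 to 577 TPM, ISG20 from 70.1 to 113 TPM, OASL from 93.8 to 128 TPM, CMPK2 from 96.1 to 131 TPM and IFIT2 from 122 to 161 TPM. EIF2AK2, the kinase PKR, fell from 121 to 93.3 TPM and UBE2L6, which conjugates ISG15, from 262 to 218 TPM. Of the guanylate-binding and IRG proteins, GTPases that act on pathogens in cells, 1 of 8 rose (12.5%, all genes 8.91%), GBP7, from 2.01 to 4.25 TPM, with none without D28 replicate 1 or 3, at a pseudocount of 0.1 or in the 6 libraries alone and 3 without D3 replicate 2, and none of 5 apolipoprotein L genes passed.

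Complement genes rose in 5 of 15 (33.3%, all genes 8.91%), and none fell, with 3 higher without D3 replicate 1, D28 replicate 2 or D28 replicate 3. C2, a protease of the classical pathway, was at 21.4, 17.7 and 24.6 TPM at D3 and 51.0, 47.0 and 45.4 TPM at D28, without overlap, and rose by 1.15 (SE 0.25, limma, adjusted p = 0.00981). CFI (0.34), C1QTNF1 (0.74) and C4A (0.57) rose by less, and C4A shares reads with its near-identical copy. Of 20 NF-κB genes 7 rose (35.0%, all genes 8.91%) and none fell, and 4 rose in the 6 libraries alone. TRAF1, an adaptor of TNF receptors, was at 9.73, 8.94 and 8.51 TPM at D3 and 22.6, 25.1 and 27.2 TPM at D28, its groups apart, with a rise of 1.36 (SE 0.13, limma, adjusted p = 3.89e-05), and NFKBIZ, a nuclear regulator of NF-κB, was at 44.3, 37.4 and 50.9 TPM at D3 and 91.5, 113 and 110.4 TPM at D28, again apart, with a rise of 1.23 (SE 0.15, limma, adjusted p = 0.000282). CD40 rose from 0.650 to 3.09 TPM (1.38), a call lost without D28 replicate 2 and in the 6 libraries alone. VCAM1 (0.35), SOD2 (0.21), BIRC3 (0.45) and NFKBIE (0.40) rose by less. Of 21 genes of cell death 7 rose (33.3%, all genes 8.91%) and 1 fell (4.76%, all genes 5.61%), with 3 higher without D28 replicate 2 or 3 and 4 without D3 replicate 1 or 3. The initiator caspase CASP10 was at 1.42, 2.10 and 1.16 TPM at D3 and 5.23, 5.38 and 4.595 TPM at D28, with D28 above D3 throughout, and rose by 1.26 (SE 0.24, limma, adjusted p = 0.00434). FAS, the death receptor, rose from 87.9 to 118 TPM and MLKL, which executes necroptosis, from 41.9 to 64.1 TPM, whereas BMF, a pro-apoptotic BH3 protein, fell from 12.5 to 6.58 TPM, with no gene of the list lower without D28 replicate 3.

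AP-1 and other immediate early factors, which respond within minutes to growth factors and stress, were mostly higher at D28. Of 21 tested 16 rose (76.2%, beside 8.91% of all genes) and none fell, with a median of 0.71. The count stayed at 12 to 16 under the alternatives, and it was 14 to 16 when 1 library was left out. FOSB (chr19:45467995-45475179, plus strand), a partner in AP-1, was at 10.0, 12.5 and 14.6 TPM at D3 and 76.7, 88.0 and 102 TPM at D28. The lowest D28 value was far above the highest D3 value, the ratio of means was 7.19, and the log2 fold change was 2.75 (SE 0.16, limma, adjusted p = 1.73e-06). FOS (chr14:75278826-75282230, plus strand) was at 58.0, 96.0 and 91.1 TPM at D3 and 231, 259 and 288 TPM at D28. It did not overlap between the groups and rose by 1.68 (SE 0.15, limma, adjusted p = 3.09e-05).

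EGR1, a zinc finger factor of the same early response, was at 56.5, 82.5 and 72.6 TPM at D3 and 182, 184 and 182 TPM at D28. Its D28 libraries were close together and above all of D3, with a log2 fold change of 1.38 (SE 0.11, limma, adjusted p = 1.67e-05). Its 250 bases before the start in RefSeq (chr5:138465229-138465478, GRCh38.p14, plus strand) are shown because the gene is a textbook target of serum response factor, with matches to the GAS core and to the CArG box in capitals.
EGR1: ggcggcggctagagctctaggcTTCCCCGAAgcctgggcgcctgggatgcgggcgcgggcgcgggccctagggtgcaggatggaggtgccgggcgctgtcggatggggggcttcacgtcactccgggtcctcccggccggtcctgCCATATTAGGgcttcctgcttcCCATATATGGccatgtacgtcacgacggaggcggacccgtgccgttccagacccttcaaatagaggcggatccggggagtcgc
The GAS match begins 228 bases before the start and the CArG matches 105 and 83 bases before it. The GAS core stood in 6.54% of the windows of genes tested and the CArG box in 1.16%. Of the 18 windows of 15 immediate early genes 2 held a CArG box and 2 the CRE TGACGTCA. Across the 501 windows of 362 genes higher past the threshold, 9.98% held an AP-1 site, beside 4.11% of all windows of genes tested, 5.19% the ISRE core, beside 3.05%, 8.18% the GAS core, beside 6.54%, 11.8% a κB site, beside 12.97%, and 0.200% the CRE, beside 2.60%. Of the 52 windows of 36 lower genes 5 held the GAS core, 8 a κB site and 3 an AP-1 site. The shares carry no test and were counted in windows of 300 bases, 50 of them after the start.

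FOS, FOSB and EGR1 were high without IFN-γ as well. FOS averaged 373 ± 20.5 TPM in Untreated, 372 ± 34.6 TPM at D14 and 291 ± 19.0 TPM in D28WO, FOSB 127 ± 16.2 TPM in Untreated, 161 ± 32.9 TPM at D14 and 90.1 ± 1.24 TPM in D28WO and EGR1 316 ± 5.07 TPM in Untreated, 241 ± 22.3 TPM at D14 and 226 ± 13.6 TPM in D28WO. D3 was thus the low group of the 5 for these genes. D3 minus Untreated was -2.21 (limma, adjusted p = 6.91e-08) for FOS, -3.27 (limma, adjusted p = 2.37e-09) for FOSB and -2.16 (limma, adjusted p = 2.54e-09) for EGR1. EGR2 was at 2.99, 2.76 and 0.988 TPM at D3 and 14.97, 12.999 and 13.2 TPM at D28, with no overlap, and rose by 2.24 (SE 0.27, limma, adjusted p = 0.000242). EGR3 rose from 0.617 to 3.06 TPM, a call lost in the 6 libraries alone and without D3 replicate 1, D28 replicate 1 or D28 replicate 2. JUNB (0.93), KLF6 (0.95), IER2 (0.74), IER3 (1.00), ATF3 (0.56), JUN (0.50) and JUND (0.33) rose too. The phosphatases of the ERK pathway, which are made in answer to it, rose in DUSP6 (50.4 to 92.4 TPM), DUSP5 (28.2 to 45.1 TPM), DUSP4 (28.5 to 41.0 TPM) and DUSP1 (85.4 to 118 TPM). FOSL1 (0.0012), FOSL2 (0.031), MYC (-0.016), KLF2 (0.29) and KLF4 (0.29) did not pass.

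Metalloproteases and their inhibitors rose in 10 of 34 (29.4%, all genes 8.91%) and fell in 4 (11.8%, all genes 5.61%), and 7 rose past the threshold (20.6%, all genes 2.88%). MMP10 is among the 10 and the 7, and it entered the test only through its D28 values. In the 6 libraries alone 6 rose and 2 fell. MMP1 (chr11:102789401-102798160, minus strand), the interstitial collagenase, was at 2.56, 1.44 and 2.37 TPM at D3 and 18.4, 20.2 and 22.4 TPM at D28. D28 lay above D3 in every library, with a ratio of means of 9.56 and a log2 fold change of 2.79 (SE 0.23, limma, adjusted p = 2.52e-05). MMP3 (chr11:102835801-102843609, minus strand), the stromelysin that activates it, was at 7.48, 6.11 and 6.75 TPM at D3 and 34.7, 34.5 and 41.4 TPM at D28, also without overlap, and rose by 2.28 (SE 0.21, limma, adjusted p = 3.18e-05). MMP1 averaged 0.426 ± 0.267 TPM in Untreated, 8.30 ± 1.87 TPM at D14 and 0.160 ± 0.154 TPM in D28WO and MMP3 0.866 ± 0.417 TPM in Untreated, 18.0 ± 3.74 TPM at D14 and 0.318 ± 0.179 TPM in D28WO, so both were in order of D3, D14 and D28 and near 0 after IFN-γ was removed. On the log2 scale D28WO minus D28 was -4.20 (limma, adjusted p = 6.75e-08) for MMP1. ADAMTS1, which cleaves proteoglycans, was at 4.25, 4.26 and 3.78 TPM at D3 and 14.5, 18.1 and 18.6 TPM at D28, with the groups apart, and rose by 1.82 (SE 0.16, limma, adjusted p = 2.80e-05). It averaged 17.6 ± 0.840 TPM at D14, and D28 minus D14 was -0.046 (limma, adjusted p = 0.884).

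MMP7, or matrilysin, was at 2.95, 1.45 and 2.53 TPM at D3 and 10.5, 7.36 and 7.06 TPM at D28, apart between the groups, with a rise of 1.50 (SE 0.25, limma, adjusted p = 0.00173), and it averaged 70.8 ± 5.46 TPM in Untreated, far above both. ADAMTS12 rose from 4.27 to 11.1 TPM. ADAMTS4 rose by 1.42 (SE 0.43, limma, adjusted p = 0.0409), but its libraries overlapped and the call was lost in 10 of 17 alternatives that include leaving out D3 replicate 2 or 3 or D28 replicate 1 or 2. MMP10 rose from 0.210 to 1.56 TPM, lost without D3 replicate 3 or D28 replicate 1 and in 3 other settings. TIMP1, an inhibitor of these proteases, rose from 342 to 450.5 TPM, while TIMP3 fell from 45.4 to 27.5 TPM. ADAM17, which sheds TNF, fell from 119.8 to 91.3 TPM, ADAM19 from 45.5 to 32.8 TPM and ADAMTS7 from 5.93 to 3.58 TPM.

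**Figure D4:**
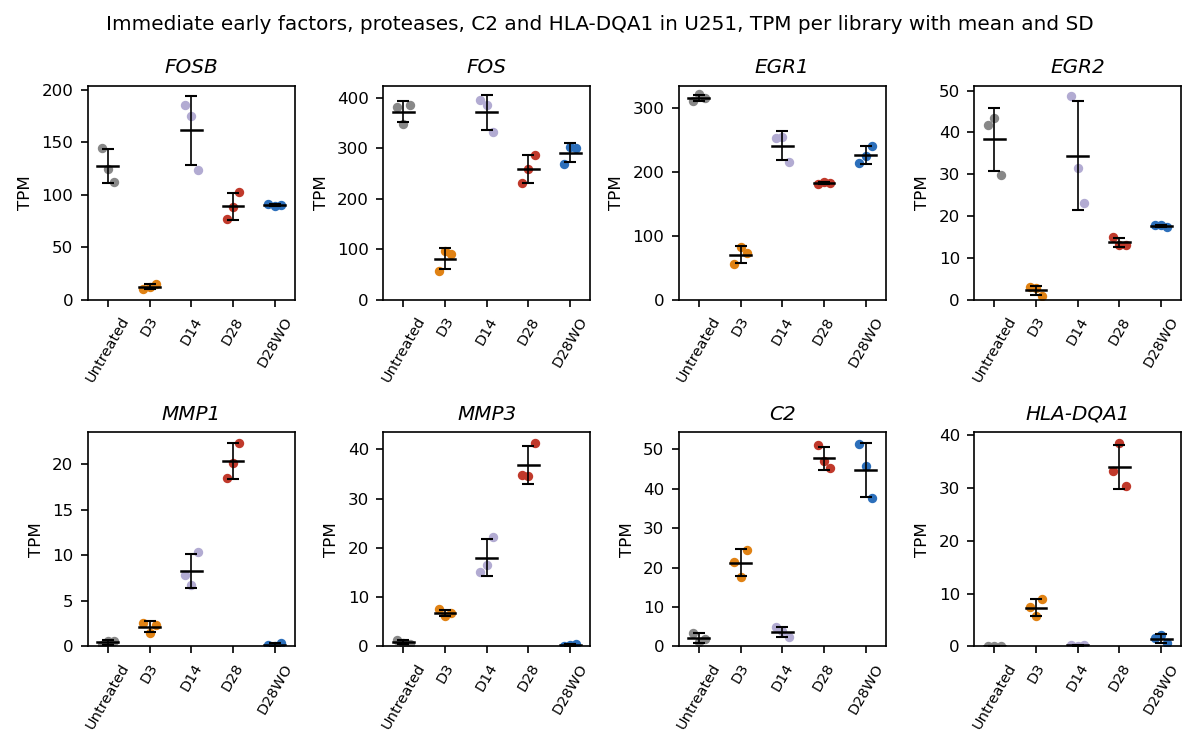
TPM (y axis) of FOSB, FOS, EGR1, EGR2, MMP1, MMP3, C2 and HLA-DQA1 in every U251 library of the 5 groups (x axis), 1 point a library, with the mean (line) and SD (bars, n = 3). The 4 early factors are lowest at D3, MMP1 and MMP3 climb over D3, D14 and D28, HLA-DQA1 is highest at D28, and the C2 libraries of D28 and D28WO lie above those of the other groups.

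Collagens rose in 12 of 32 (37.5%, all genes 8.91%) and fell in 2 (6.25%, all genes 5.61%, median 0.21), with 7 higher in the 6 libraries alone. COL24A1, a minor fibrillar collagen, was at 1.48, 1.67 and 1.26 TPM at D3 and 4.39, 5.66 and 4.97 TPM at D28, without overlap, and rose by 1.28 (SE 0.18, limma, adjusted p = 0.000676). COL17A1 (18.7 to 37.3 TPM), COL16A1 (18.9 to 35.3 TPM), COL13A1 (22.1 to 40.0 TPM) and the fibrillar COL1A2 (123 to 167 TPM) rose as well, whereas COL6A2 (376 to 318 TPM) and COL14A1 (94.9 to 75.1 TPM) fell, with 1 lower without D3 replicate 3, D28 replicate 1 or D28 replicate 2. COL1A2 had been at 324 ± 8.66 TPM in Untreated. Of 37 other matrix genes 12 rose (32.4%, and 7 in the 6 libraries alone) and 1 fell, LOXL2, from 104 to 82.2 TPM, with 2 lower without D3 replicate 1 or D28 replicate 1 and 4 after quantile normalization. POSTN, or periostin, was at 0.443, 3.70 and 1.13 TPM at D3 and 8.44, 9.62 and 5.04 TPM at D28. D3 replicate 2 was the highest of its group, below the lowest D28 library, and the rise was 1.80 (SE 0.39, limma, adjusted p = 0.00878), which the 6 libraries alone did not call. THBS4 rose from 1.70 to 4.97 TPM (1.15), a call lost without D3 replicate 2 or 3 or D28 replicate 1 or 3. TGFBI (351 to 503 TPM), SPP1, or osteopontin (182 to 279 TPM), and LOX, which cross-links collagen (39.3 to 56.4 TPM), were among the others that rose. Of 31 integrins and laminins 4 rose (12.9%, beside 8.91% of all genes) and 2 fell (6.45%, beside 5.61%), among those that rose the laminin chain LAMA3 (0.98), while ITGB8 (-0.54) and ITGB1 (-0.25) fell, with 1 lower without D3 replicate 2 or D28 replicate 2. The count of 4 became 1 without D3 replicate 3 or D28 replicate 2 and 2 without D28 replicate 1.

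In the TGF-β family 5 of 28 rose (17.9%, all genes 8.91%) and 3 fell (10.7%, all genes 5.61%), with 9 higher without D3 replicate 2 and 3 in the 6 libraries alone. NOG, or noggin, which traps BMPs, was at 6.31, 6.20 and 7.80 TPM at D3 and 18.3, 22.7 and 21.5 TPM at D28. D28 was above D3 in each library and the rise was 1.49 (SE 0.30, limma, adjusted p = 0.00515), with an adjusted p in limma of 0.00327 to 0.0880 over the 17 alternatives, the highest at a pseudocount of 0.1. BMP7 rose from 0.374 to 2.73 TPM (1.46), lost in the 6 libraries alone, and BMP4 from 2.07 to 4.13 TPM. BMP7 is counted among the 5 that rose and entered the test only through its D28 values. The receptor TGFBR1 (-0.27) and the latent binding protein LTBP4 (-0.52) fell. Genes of the mesenchymal glioma state rose in 11 of 30 (36.7%, all genes 8.91%, and 7 in the 6 libraries alone) and fell in 1 (3.33%, all genes 5.61%). CHI3L1, a secreted marker of that state, was at 30.2, 33.0 and 26.7 TPM at D3 and 76.6, 91.4 and 99.5 TPM at D28, apart between the groups, and rose by 1.54 (SE 0.15, limma, adjusted p = 4.78e-05). S100A6 (719 to 1127 TPM), PLAUR (167 to 262 TPM), ANXA1 (458 to 583 TPM) and VIM (641 to 764 TPM) rose as well, and the transcription factor SNAI1 fell (-0.74), whereas no gene of the list did without D3 replicate 2, without any 1 of the D28 libraries or in the 6 libraries alone. TGFBI and TIMP1 stand in more than 1 of these lists.

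Neural and glial identity genes rose in 12 of 29 (41.4%, all genes 8.91%) and fell in 1 (3.45%, all genes 5.61%, median 0.42), with 7 higher without D3 replicate 1 or D28 replicate 3 and 2 lower without D3 replicate 3 or D28 replicate 1. HES1, the Notch target that keeps progenitors from maturing, was at 49.7, 55.7 and 55.6 TPM at D3 and 117, 130.2 and 143 TPM at D28. Its D28 libraries lay above all of D3 and the rise was 1.26 (SE 0.11, limma, adjusted p = 3.18e-05). PTPRZ1 (29.0 to 55.3 TPM), TUBB3 (65.8 to 102 TPM), S100B (43.1 to 64.1 TPM), SLC1A3 (104 to 160.5 TPM) and NES (64.2 to 89.1 TPM) rose, genes of glial progenitors, astrocytes or young neurons. The progenitor genes SOX2, SOX9 and FABP7 differed by -0.052, -0.14 and 0.035 and did not pass. GFAP, the filament of astrocytes, went the other way and was at 299.5, 365 and 361 TPM at D3 and 222, 253 and 255 TPM at D28. D28 lay below D3 without overlap, with a log2 fold change of -0.48 (SE 0.091, limma, adjusted p = 0.00395), beside 1258 ± 46.3 TPM in Untreated. SNAP25, a neuronal synapse gene, was higher by 1.40 and KRT18, an epithelial keratin, was the one epithelial marker called, also higher. The summed neuron markers were 37.5 to 52.6 TPM at D3 and 54.2 to 66.1 TPM at D28, and the epithelial ones 51.0 to 62.8 and 61.5 to 83.9 TPM.

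Receptor tyrosine kinases and their ligands rose in 8 of 41 (19.5%, all genes 8.91%) and fell in 3 (7.32%, all genes 5.61%), with changed counts without single libraries (5 higher without D28 replicate 3, 1 lower without D3 replicate 1, D28 replicate 1 or D28 replicate 3), and a median that was 0.076 here and -0.0036 after quantile normalization (0.035 and -0.027 over all genes). NTRK2, the receptor of BDNF, was at 1.76, 1.93 and 3.40 TPM at D3 and 6.78, 7.30 and 8.35 TPM at D28, its groups apart, and rose by 1.36 (SE 0.24, limma, adjusted p = 0.00237). FGF7 (1.29) rose, with a call lost in 6 of 17 alternatives that include leaving out D3 replicate 2 or D28 replicate 1 or 3, and FGF5 (1.07) rose, with a call lost without D3 replicate 2 or 3 or D28 replicate 2 or 3. PDGFD (9.07 to 19.0 TPM), VEGFC (36.7 to 59.9 TPM) and PDGFRA (29.0 to 42.0 TPM) rose, while VEGFA fell from 332 to 226 TPM, AXL from 142 to 123 TPM and FGFR4 from 9.96 to 4.61 TPM. In the PI3K-AKT-mTOR pathway none of 36 rose and 6 fell (16.7%, beside 5.61% of all genes), with a median of -0.14, and 10 fell after quantile normalization. DDIT4, an inhibitor of mTOR, was at 162, 169 and 177 TPM at D3 and 106, 107 and 92.2 TPM at D28, and D28 lay below D3 in every library, with a change of -0.73 (SE 0.065, limma, adjusted p = 3.02e-05). The kinase RPS6KB1 fell from 113 to 86.2 TPM and the translation repressor EIF4EBP1 from 166 to 138 TPM. The list thus holds activators and inhibitors that fell.

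Glycolysis and hypoxia genes fell in 15 of 41 (36.6%, beside 5.61%) and rose in 1 (2 without D3 replicate 3 or D28 replicate 2 and after quantile normalization), with a median of -0.16. The count that fell was 7 without D28 replicate 2, 8 without D28 replicate 1, 9 without D3 replicate 3 and 5 in the 6 libraries alone. ENO1, a glycolytic enzyme, was at 765, 802 and 789 TPM at D3 and 571, 526 and 605 TPM at D28. D28 was below D3 throughout, with a log2 fold change of -0.47 (SE 0.055, limma, adjusted p = 0.000183). NDRG1, a gene induced by hypoxia, was at 611, 690.3 and 622 TPM at D3 and 426, 369 and 459.8 TPM at D28, without overlap, and changed by -0.62 (SE 0.10, limma, adjusted p = 0.00177). PFKP (217 to 164 TPM), GPI (276 to 212 TPM), PDK1, which keeps pyruvate out of the mitochondrion (63.2 to 43.7 TPM), the glucose carriers SLC2A1 (150.3 to 133 TPM) and SLC2A3 (70.8 to 58.9 TPM), and HIF1A itself (283 to 219 TPM) fell. The one that rose was CA12, a carbonic anhydrase of the cell surface, at 15.1, 17.8 and 18.0 TPM at D3 and 45.9, 54.2 and 50.1 TPM at D28. Its groups were apart, and the rise was 1.51 (SE 0.17, limma, adjusted p = 0.000136).

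Cytosolic ribosomal protein genes fell in 26 of 86 (30.2%, beside 5.61% of all genes) and none rose (8.91% of all genes did), with a median of -0.14. RPL26 (748 to 553 TPM) and RPS19 (469 to 349 TPM) changed by -0.43 and -0.43, the largest sizes among those called. The genes summed to 2.80 to 3.02% of all TPM at D3 and 2.57 to 2.64% at D28 (two-sided exact permutation test, p = 0.1, the smallest possible), and the count was 19 to 25 when 1 library was left out and 10 in the 6 libraries alone. Of 12 mitochondrially encoded mRNAs none passed, all 12 had a negative log2 fold change (median -0.32), and their share of 0.454 to 0.707% at D3 overlapped that of 0.322 to 0.492% at D28. Nuclear genes of the respiratory chain rose in 7 of 79 (8.86%) and fell in 2 (2.53%), beside 8.91% and 5.61% of all genes, with 13 higher after quantile normalization, 3 higher and none lower in the 6 libraries alone, none lower without D28 replicate 3, and 1 lower without D3 replicate 2 or 3 or D28 replicate 2. MYC-responsive nucleolar genes rose in 2 of 24 (8.33%) and fell in 3 (12.5%), beside the same shares of all genes, with 1 higher without D3 replicate 2, D28 replicate 2 or D28 replicate 3, none lower without D3 replicate 1, 1 lower without D28 replicate 1 or 2, and none either way in the 6 libraries alone.

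Genes of the unfolded protein response and of ATF4, its amino acid arm, split. Of 37, 7 rose (18.9%, all genes 8.91%) and 8 fell (21.6%, all genes 5.61%), with 4 higher without D3 replicate 1 or any 1 of the D28 libraries. The ATF4 targets PSAT1 (212 to 156 TPM), PCK2 (163 to 114 TPM), SHMT2 (204 to 155 TPM), MTHFD2 (228 to 178 TPM), SLC7A5 (161 to 119 TPM) and STC2 (213 to 146 TPM) fell, whereas SDF2L1 (30.4 to 59.3 TPM), CRELD2 (61.2 to 88.3 TPM) and MANF (112 to 141 TPM), proteins of the endoplasmic reticulum, rose. FGF21, a stress hormone, was at 12.4, 6.94 and 6.92 TPM at D3 and 33.7, 28.2 and 13.5 TPM at D28, with the lowest D28 library just above the highest of D3, and rose by 1.38 (SE 0.39, limma, adjusted p = 0.033), a call lost in 7 of 17 alternatives that include leaving out D3 replicate 2 or 3 or D28 replicate 1 or 2. Cholesterol and fatty acid genes rose in 11 of 35 (31.4%, all genes 8.91%) and fell in 1 (2.86%, all genes 5.61%). In this list 7 were higher without any 1 of the D28 libraries, and 3 were lower without D28 replicate 1 and 2 without D3 replicate 2. CH25H, which makes 25-hydroxycholesterol, was at 4.68, 7.34 and 5.86 TPM at D3 and 11.9, 13.4 and 14.0 TPM at D28, apart, and rose by 1.03 (SE 0.19, limma, adjusted p = 0.00382). The synthesis genes MVD (28.1 to 41.7 TPM), EBP (76.3 to 102 TPM) and DHCR7 (61.9 to 76.1 TPM) rose, while ACACA, which starts fatty acid synthesis, fell. Metallothionein and iron genes rose in 5 of 19 (26.3%, all genes 8.91%), among them MT2A (387 to 593 TPM), FTL, the ferritin light chain (776 to 962 TPM), HMOX1 (100.2 to 152 TPM) and MT3 (1.71, lost in 5 of 17 alternatives that include leaving out D3 replicate 2 or 3 or D28 replicate 2 or 3). TXNRD1 fell (5.26%, all genes 5.61%), with none lower without D3 replicate 1 or 2 or D28 replicate 2 or 3. The count of 5 became 2 without D3 replicate 3 and 3 without D3 replicate 1, D28 replicate 2 or D28 replicate 3.

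Of 43 S phase genes of the cell cycle none rose and 5 fell (11.6%, beside 5.61% of all genes, median -0.12), among them the replication licensing factor CDC6 (156 to 119 TPM) and ATAD2 (89.7 to 67.7 TPM), with 2 lower without D28 replicate 3 and 3 without D3 replicate 1 or D28 replicate 2. Of 54 G2/M genes 8 rose (14.8%, beside 8.91% of all genes) and 3 fell (5.56%), with 4 higher without D3 replicate 2 or D28 replicate 3 and 1 lower without D3 replicate 1, D28 replicate 2 or D28 replicate 3. After quantile normalization 10 of them were higher and 6 lower. AURKA, a mitotic kinase, was at 103, 67.3 and 94.4 TPM at D3 and 133, 123 and 129.9 TPM at D28, apart, with a rise of 0.56 (SE 0.12, limma, adjusted p = 0.00793), and CDC20 (74.0 to 103 TPM) and UBE2C (92.9 to 122 TPM) rose. Of 20 G1 cyclins and CDK inhibitors 3 rose (15%, all genes 8.91%) and 2 fell (10%, all genes 5.61%). Those that rose were CCNE1 (12.4 to 24.3 TPM), CCND3 (108 to 145 TPM) and the inhibitor CDKN1A, or p21 (51.5 to 73.8 TPM), while CDK6 (37.8 to 29.7 TPM) and E2F2 (24.3 to 13.3 TPM) fell, with 6 higher without D3 replicate 1 and 1 lower without D3 replicate 1 or 2 or D28 replicate 2 or 3. In the 6 libraries alone 3 were higher and none lower. Of 28 p53 targets 6 rose (21.4%, all genes 8.91%) and 1 fell (3.57%, all genes 5.61%), with 2 lower without D3 replicate 3 or D28 replicate 2 and 5 lower after quantile normalization. Replication-dependent histones rose in 12 of 54 (22.2%, all genes 8.91%) and none fell, with a median of 0.60, and 7 rose without D28 replicate 2. H2AC17 was at 0, 0 and 1.37 TPM at D3 and 3.57, 8.16 and 7.45 TPM at D28, with the groups apart, and rose by 2.41 (SE 0.47, limma, adjusted p = 0.00484), having entered the test through D28 alone. H2BC15 (5.34 to 12.9 TPM), H2BC4 (19.2 to 47.0 TPM), H2BC8 (3.29 to 9.21 TPM) and H1-4 (1.30 to 4.20 TPM) were the others past the threshold. H2BC15 was lost in 3 of 17 alternatives that include leaving out D28 replicate 1 or 2, H2BC4 lost in 7 of 17 alternatives that include leaving out D3 replicate 1, 2 or 3 or D28 replicate 1, 2 or 3, H2BC8 lost in 3 of 17 alternatives that include leaving out D3 replicate 2 or D28 replicate 3 and H1-4 lost in 10 of 17 alternatives that include leaving out D3 replicate 2 or D28 replicate 1, 2 or 3. Histone genes share reads with near-identical copies, and most of their mRNAs carry no poly(A) tail, so their values are uncertain.

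The largest changes by the rule for named genes lay partly outside these groups. Of the 276 protein-coding genes that could be named among the higher ones, GCNT3, a mucin glycosyltransferase, was at 1.59, 0.309 and 0.608 TPM at D3 and 15.2, 12.9 and 14.7 TPM at D28. Its groups were far apart and it rose by 3.11 (SE 0.31, limma, adjusted p = 5.50e-05). ANKRD22 was at 0.692, 1.70 and 1.35 TPM at D3 and 14.8, 17.3 and 18.7 TPM at D28, with all D28 libraries above D3 and a rise of 3.02 (SE 0.27, limma, adjusted p = 3.02e-05), and it averaged 0.0759 ± 0.0217 TPM at D14. SLAMF8, a surface receptor known from myeloid cells, was at 0.576, 0 and 1.64 TPM at D3 and 6.37, 9.31 and 14.6 TPM at D28, apart as well, with a rise of 2.72 (SE 0.36, limma, adjusted p = 0.000409), while the macrophage markers summed to at most 11.1 TPM. ATP6V0D2, a proton pump subunit, rose from 1.57 to 16.3 TPM (2.90), CD163L1 from 1.57 to 14.7 TPM (2.74), ASPHD1 from 3.66 to 23.0 TPM (2.37) and CEMP1 from 0.0216 to 8.84 TPM (3.21). GJA10, a gap junction protein, rose from 0.372 to 6.14 TPM (2.39) and was listed at 0 in every library of Untreated, D14 and D28WO. Among genes that such cells do not use, 2 of 32 tested rose (6.25%, all genes 8.91%). Both were past the threshold (6.25%, all genes 2.88%). KRTAP2-3 rose from 0.247 to 2.81 TPM, and KRTAP21-2 was listed at 0 in all D3 libraries and at 1.97, 3.04 and 4.68 TPM at D28, and both entered the test through D28 alone.

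The falls came from 35 such genes. SEMA3E (chr7:83363238-83649139, minus strand), a repulsive guidance cue for vessels and axons, was at 22.9, 11.2 and 18.5 TPM at D3 and 3.51, 3.496 and 3.47 TPM at D28. The D28 libraries were close together and below all of D3, with a change of -1.99 (SE 0.41, limma, adjusted p = 0.00657). AOC3, an amine oxidase of the cell surface, was at 30.5, 20.7 and 29.9 TPM at D3 and 6.80, 9.42 and 4.76 TPM at D28, apart, and changed by -1.83 (SE 0.24, limma, adjusted p = 0.000383). It averaged 0.571 ± 0.160 TPM in Untreated, below both. TMEM61 was at 15.4, 14.6 and 8.50 TPM at D3 and lower in all D28 libraries, with 4.25 TPM as their highest and a change of -2.62 (SE 0.42, limma, adjusted p = 0.00146). PTAFR, the receptor of platelet-activating factor, fell from 9.03 to 2.47 TPM (-1.55), WNK4, a kinase that controls ion carriers, from 25.5 to 8.07 TPM (-1.53), and ZIC4, a neural transcription factor, from 10.8 to 3.32 TPM (-1.41). STAC3 (-1.50, lost without D28 replicate 3) and GAL3ST1 (-1.42, lost in 4 of 17 alternatives that include leaving out D3 replicate 1 or 3 or D28 replicate 2) fell as well. The other 4 had no symbol in the table. ENSG00000258989 was at 8.36, 6.02 and 3.40 TPM at D3 and listed at 0 in all D28 libraries. ENSG00000258466 (-3.09) was lost in 8 of 17 alternatives that include leaving out D3 replicate 1, 2 or 3 or D28 replicate 1 or 2, ENSG00000256966 (-1.79) was lost in 3 of 17 alternatives that include leaving out D3 replicate 2 or D28 replicate 3, and ENSG00000267228 (-1.56) was lost in 7 of 17 alternatives that include leaving out D3 replicate 2 or 3 or D28 replicate 2 or 3.

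**Figure D5:**
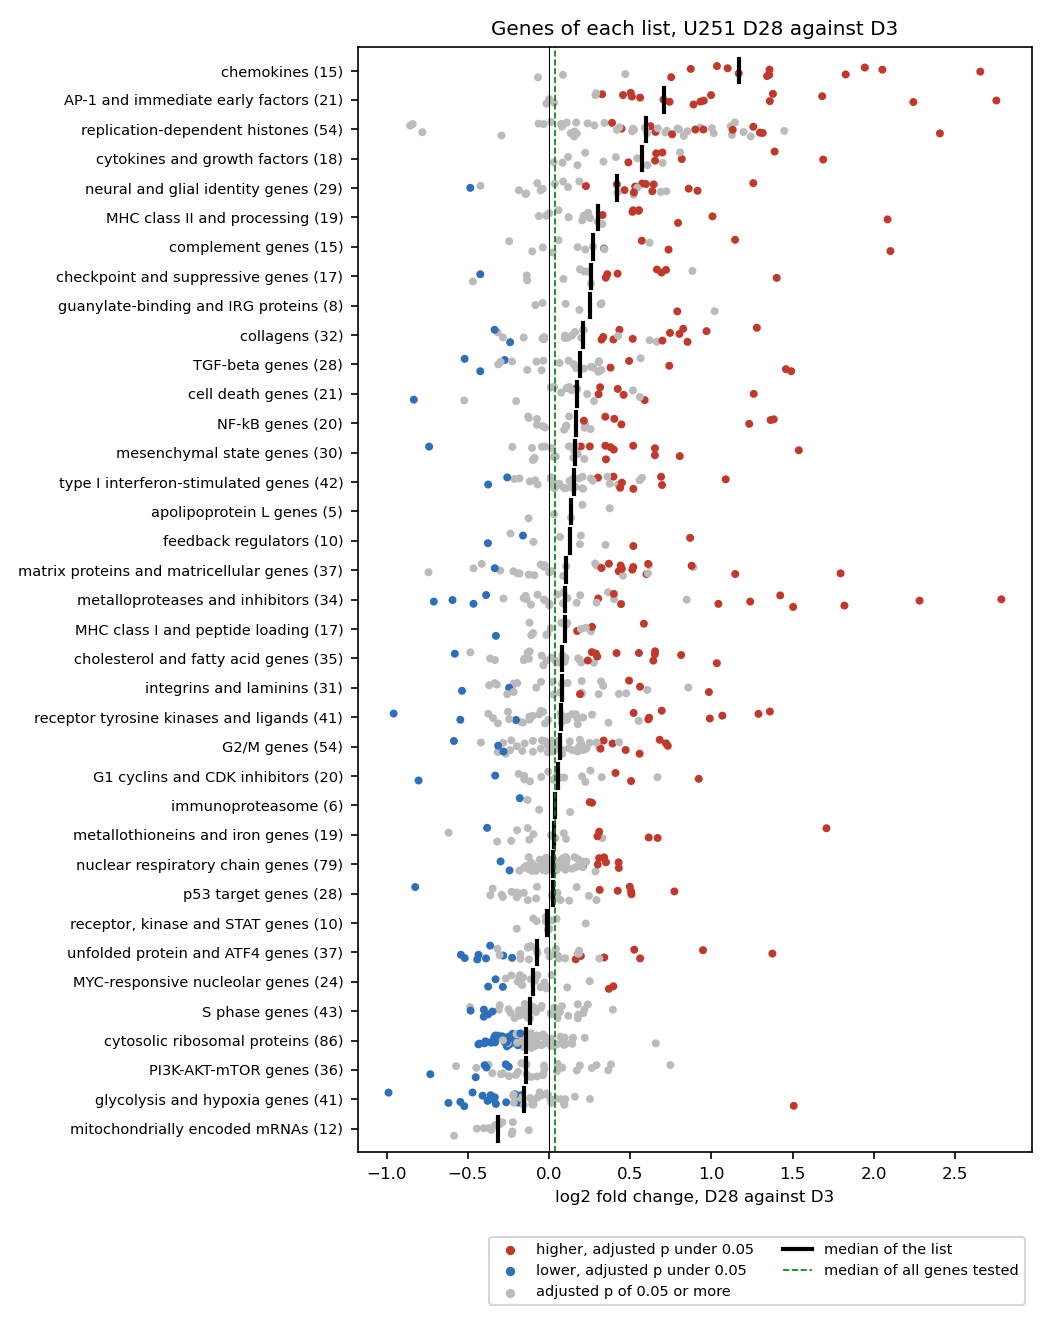
Log2 fold change from D3 to D28 (x axis) of the tested genes of each list in U251 (y axis, number of tested genes in brackets), 1 dot a gene, with the median of the list (black bar) and of all genes tested (dashed, 0.035). Chemokines and immediate early factors have the highest medians, 1.17 and 0.71, and mitochondrially encoded mRNAs the lowest, -0.32.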

How the data were processed

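RNA-seq values of 15 U251 libraries were taken from the table the authors deposited for this line, in TPM. According to the study and the labels, reads were checked with FastQC, trimmed with Trim Galore, aligned to GRCh38 with STAR and counted with featureCounts, and edgeR was used by the authors on counts not analysed here. How TPM was computed is not given in the sources used here. A supplementary sheet calls the matrices CPM, and the deposited values were used as TPM. Each library sums to 1000000 TPM, so depth is unknown.

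The columns were assigned to samples by library name. Values were taken as log2(TPM + 1), and genes averaging 0.5 TPM or more in the 6 libraries were fitted with limma 3.58.1 in R 4.3.3 (lmFit, eBayes with a trend) as 5 group means over 15 libraries, with Benjamini-Hochberg adjustment. The threshold was an adjusted p under 0.05 and a log2 fold change over 1 in size. The fit was tested on simulated data. Tables and figures were made with Python 3.11.15 and pandas 2.3.3, and cell cycle lists come from Seurat 5.3.0. Coordinates are from GENCODE on GRCh38. Promoter windows of 300 bases, 250 before and 50 after the start, came from RefSeq (GRCh38.p14). Of the 24363 genes 13747 matched, with 19565 windows. All motifs were searched on both strands, κB, AP-1 and CArG by their consensus, and those other than GAS and ISRE were added after values had been seen.

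Named genes were the 12 largest rises and falls among protein-coding genes past the threshold with at least 5 TPM in the higher group and no overlap, list members past it (the 6 largest of a list), and 40 listed interferon genes. Other list members named below the threshold were chosen after their values were seen. The comparison and the lists were chosen with earlier results of these data known. Alternatives were a pseudocount of 0.1, other filters, quantile and median-ratio scaling, the 6 libraries alone, a replicate block, array weights, background subtraction, no variance trend, the adjusted p alone, and leaving out each library. Replicate numbers did not pair the samples. Some genes of these lists are counted and are not reported by name here.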

Additional observations from a re-analysis of the deposited data

How the results depend on the processing

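Past the threshold, 701 genes were higher and 117 lower. With the 6 libraries alone these counts were 459 and 64, after quantile normalization 497 and 215, and with the adjusted p as the only criterion 2171 and 1366. Without 1 library in turn, 507 to 639 were higher and 72 to 137 lower. At an adjusted p under 0.05, the 2171 higher and 1366 lower genes became 1092 and 471 with the 6 libraries alone, and 1394 to 1862 and 720 to 1229 without 1 library. The lower ends came without D28 replicate 2 for the higher genes and without D28 replicate 3 for the lower ones, and the lower count was also 900 without D3 replicate 1 and 816 without D28 replicate 2. In these settings fewer samples enter the fit. The ratio of D28 to D3 background was 2.05 over all genes that such cells do not use and 1.35 over olfactory receptors alone. The replicate number as a block gave 666 higher and 108 lower, and the deviations of samples with the same number correlated at 0.047, -0.0094 and 0.010, so that the numbers were not used to pair them.

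Of 110 named genes 75 were past the threshold, and 27 of these 75 fell short of an adjusted p of 0.05 in limma in at least 1 alternative, while none of the 75 changed direction. B2M came to 0 after quantile normalization. TPM without depth limits what can be said of genes near 0, where the background over all unused genes was higher at D28.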
